A study of Mus musculus with 6 samples.

Results

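The transcripts of 9 genes of the tight junction were followed in whole skin: the claudins Cldn1, Cldn3, Cldn4, Cldn5, Cldn7, Cldn8 and Cldn23, occludin (Ocln) and the scaffold protein ZO-1 (Tjp1). They were taken by symbol from a table of 23951 genes, and all 9 had a row in it and passed the filter on low values (the mean of the 6 mice had to reach 0.1 FPKM), which 17021 genes passed in all. The skin came from 3 mice labelled JunB dep and 3 controls labelled JunB +/+, all on a C57Bl/6 background and aged 6 to 7 months. In the JunB dep mice, called JunBΔep below, JunB is deleted in cells that express keratin 5, so that keratinocytes lose the gene while fibroblasts, blood vessels, fat and leukocytes of the same piece of skin keep it, and the skin was taken from lesions. Poly(A) RNA was sequenced, and the values are FPKM, fragments per kilobase of transcript scaled to the number of mapped fragments, which allow levels to be compared between genes because they are per length.

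Tight junctions seal the space between neighbouring epithelial cells. Claudins are 4-pass membrane proteins whose strands form the seal and set its permeability to ions and water, occludin is a further strand protein of the same junction, and ZO-1 ties both to the actin skeleton. In the epidermis the working junctions lie in the granular layer, below the cornified layer, where claudin-1 is required for the barrier to water loss and claudin-4 accompanies it. Claudin-5 is the main claudin of blood vessel endothelium, and claudin-3, claudin-7 and claudin-8 are best known from glandular and other simple epithelia.

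Junb measured 59.3, 72.4 and 56.9 FPKM across control replicates 0, 1 and 2, against 129.6, 42.8 and 28.0 FPKM across those labelled JunBΔep, replicates 0, 1 and 2. The library labelled JunBΔep replicate 0 was thus above every control. Whole skin includes the cells that keep the gene, so this value cannot decide whether the label is right. The median of 10 leukocyte genes was also highest in this library, at 1.19 relative to the control mean on the log2 scale. Amot, at 0.890 FPKM, was low in it as in the other JunBΔep mice. The differences of the 9 genes are also given without this library. This library stood apart in other genes too: Krt13 and Krt4, keratins of mucosa, reached 1990 and 1356 FPKM, with no more than 0.937 FPKM elsewhere. The basal keratin Krt14 was listed at 0 in it, beside 3725 FPKM of its partner Krt5, so a listed 0 need not mean absent RNA. Xist reached 27.6 to 34.2 FPKM for control replicate 1 and JunBΔep replicates 1 and 2, with no more than 0.0274 FPKM for the other 3 mice, so the sexes are not balanced between the groups. The FPKM values sum to between 481078 and 630363 per mouse, and the number of reads is unknown.

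None of the 9 genes passed the test between JunBΔep and control skin, a limma fit to log2(FPKM + 0.5) over all genes, on which scale all fold changes below are given. An adjusted p below 0.05 was reached by 0 of 9 in either direction, where 1.38% of all tested genes were called lower and 0.0% were called higher. Before adjustment, 1 of 9 had a p below 0.05, namely Cldn4, higher in JunBΔep skin, where 1.43% of all genes were higher and 6.13% lower. In none of the 9 did all 3 JunBΔep mice lie on one side of all 3 controls, which was the case for 14.8% of all tested genes. The fitted log2 fold changes of the 9 genes had a median of 0.07, with 6 positive and 3 negative, while 53.4% of all tested genes were positive with a median of 0.03. Without the library labelled JunBΔep replicate 0 the median of the 9 was 0.31, that of all genes was 0.03, and again 0 of the 9 were called, where 0.739% of all genes were called lower and 0.0591% higher. The comparison is of whole skin, in which fewer cells of a type and less RNA per cell cannot be told apart. With 3 mice against 3, an exact permutation test of 1 gene cannot give a two-sided p below 0.1.

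**Figure D1:**
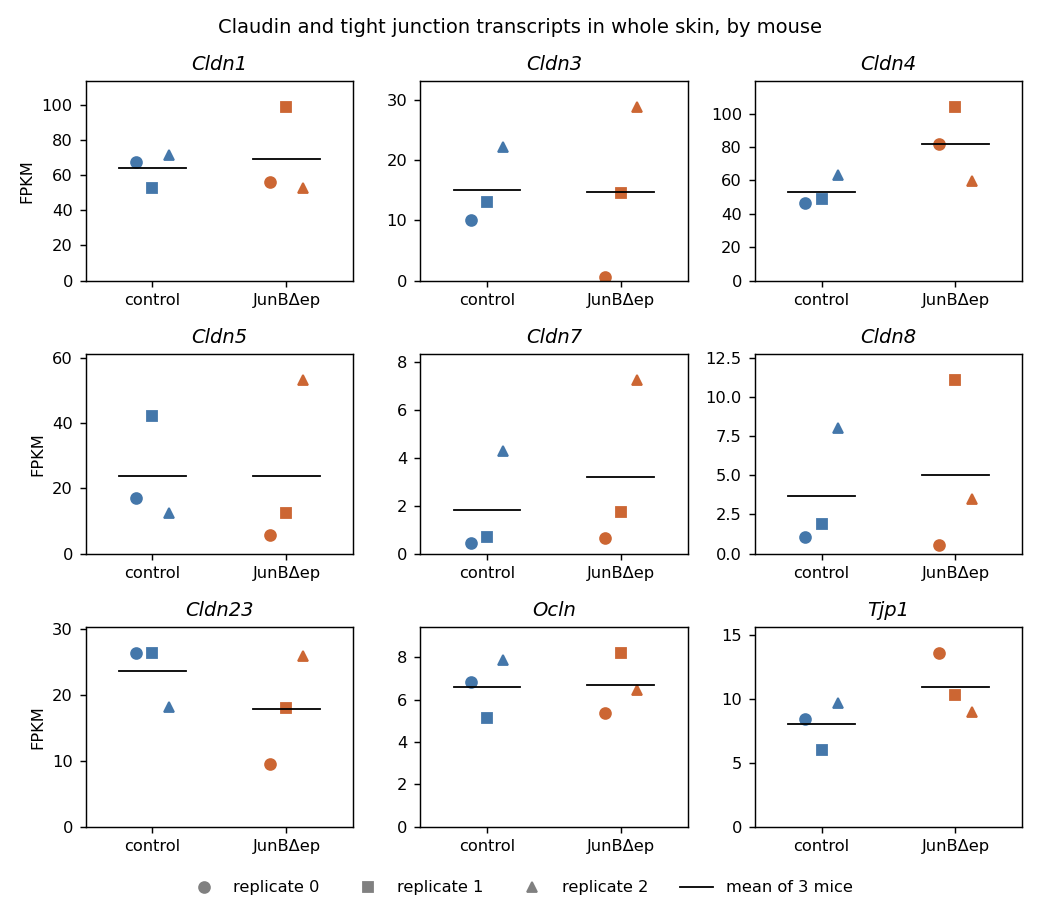
FPKM of the 9 genes (vertical axes, linear and starting at 0) in each of 3 control mice (blue) and 3 JunBΔep mice (orange), with marker shape giving the replicate and a line at the group mean. In every panel the ranges of the groups overlap, and the library labelled JunBΔep replicate 0 is the lowest of the 6 for Cldn3, Cldn5, Cldn8 and Cldn23 and the highest for Tjp1.

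By level, the ranges of adjacent genes in control skin were separate at 2 places, after Cldn4 and after Cldn3. Cldn1 (63.8 ± 9.68 FPKM, SD, n = 3 control mice) and Cldn4 (52.8 ± 8.89 FPKM, SD, n = 3) were the most abundant, and their ranges overlapped each other but not that of the next gene. Cldn5 (23.9 ± 16.0 FPKM), Cldn23 (23.7 ± 4.72 FPKM) and Cldn3 (15.1 ± 6.27 FPKM) followed with overlapping ranges, and that of Cldn3 lay wholly above that of Tjp1. Tjp1 (8.02 ± 1.90 FPKM) and Ocln (6.60 ± 1.37 FPKM) came next, and Cldn8 (3.67 ± 3.78 FPKM) and Cldn7 (1.81 ± 2.14 FPKM) were lowest, with an SD as large as the mean. In JunBΔep skin the order was the same but for the first 2 places, where Cldn4 (81.8 ± 22.0 FPKM, SD, n = 3 JunBΔep mice) stood above Cldn1 (69.1 ± 25.7 FPKM, SD, n = 3) with overlapping ranges.

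Cldn4, which encodes a claudin of the upper living layers of the epidermis, was the gene with the smallest p. Its gene has 1 exon, on chromosome 5 of the mm9 build from 135420996 to 135422804, minus strand. Its level measured 46.6, 48.8 and 63.0 FPKM across control replicates 0, 1 and 2, against 81.6, 104 and 59.9 FPKM across JunBΔep replicates 0, 1 and 2. JunBΔep replicates 0 and 1 lay above every control, and replicate 2 lay between the second and the highest control. The estimated log2 difference between groups was 0.60 (standard error 0.25, 95% interval 0.00 to 1.21, adjusted p = 0.661 from limma, where the unadjusted limma p over all genes was 0.0497), so the difference did not pass the threshold. Without the library labelled JunBΔep replicate 0 it was 0.59, and over every mouse left out in turn it lay between 0.41 and 0.81. The unadjusted limma p of Cldn4 was 0.0502 with a pseudocount of 0.1 and 0.0963 without that library. Over all alternative settings and omissions this p lay between 0.013 and 0.144. The sample names fall into a lower and a higher number series, whose meaning is not stated, with 1 JunBΔep and 2 control mice in the lower and 2 JunBΔep and 1 control in the higher. Within these series the difference of Cldn4 was 0.77 and 0.32 on the log2 scale.

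JunB is a subunit of the transcription factor AP-1, so the start regions of the 9 genes were searched for the AP-1 motif TGANTCA, for the related CRE motif TGACGTCA and for the motif of the Grainyhead-like epithelial factors, AACCNGGTT, on both strands. These 3 motifs do not overlap one another. RefSeq windows from 250 bases before to 50 bases after a start, on GRCm38.p6, were at hand for 7 of the 9 genes, in 9 windows, and not for Cldn8 and Cldn23. Only the Cldn4 window held the AP-1 motif, in 2 copies, starting 240 and 158 bases before the start. Among 32851 such windows of all genes, 7.81% held at least 1 copy and 0.460% held 2 or more. The CRE motif was in 1 of the 2 windows of Cldn7, 38 bases before the start, and in 1.79% of all windows, and the Grainyhead-like motif was in none of the 9 and in 0.271% of all. The 250 bases before the start of Cldn4 (GRCm38.p6, chr5:134946935-134947184, minus strand) and of its neighbour Cldn3 (GRCm38.p6, chr5:134985964-134986213, plus strand) are shown because the first holds both matches and the second belongs to the neighbouring gene, with the AP-1 matches in capitals:
Cldn4: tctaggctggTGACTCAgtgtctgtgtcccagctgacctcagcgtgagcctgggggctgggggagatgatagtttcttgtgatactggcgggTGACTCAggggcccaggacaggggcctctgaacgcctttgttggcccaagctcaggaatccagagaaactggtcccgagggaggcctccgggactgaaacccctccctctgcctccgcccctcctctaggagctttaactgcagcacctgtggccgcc
Cldn3: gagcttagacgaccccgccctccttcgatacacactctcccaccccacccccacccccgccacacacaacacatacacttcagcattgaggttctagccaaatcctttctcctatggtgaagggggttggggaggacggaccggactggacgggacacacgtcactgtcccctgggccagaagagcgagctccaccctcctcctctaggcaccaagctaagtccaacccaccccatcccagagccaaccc
A match of these letters is not a measurement of binding, and no binding was measured here.

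Cldn3 lies 39279 bases from Cldn4 on mm9, with no annotated gene between them, from 135462084 to 135463342 on the plus strand. It encodes a sealing claudin of glandular epithelia. Its level measured 10.0, 13.1 and 22.1 FPKM across control replicates 0, 1 and 2, against 0.584, 14.5 and 28.8 FPKM across JunBΔep replicates 0, 1 and 2. The library labelled JunBΔep replicate 0 was far below the other 5 mice, JunBΔep replicate 1 lay among the controls, and replicate 2 was above them. The highest value was 49.4 times the lowest, and 2.74% of tested genes had a wider log2 range over the 6 mice. The log2 fold change was -0.92 (standard error 1.21, 95% interval -3.88 to 2.04, adjusted p = 0.798 from limma). It turned positive, at 0.50, without the library labelled JunBΔep replicate 0. Relative to the control mean on the log2 scale, that library was at -3.77, while replicates 1 and 2 were at 0.02 and 0.99. The gene overlaps a lincRNA, Wbscr25, on the opposite strand, and the use of strand in the authors' counting is not given.

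Cldn1, whose product is the claudin required for the epidermal water barrier, differed less between mice. Its 4 exons lie on chromosome 16, from 26356728 to 26371927, minus strand. Its level measured 67.2, 52.9 and 71.3 FPKM across control replicates 0, 1 and 2, against 56.2, 98.7 and 52.4 FPKM across JunBΔep replicates 0, 1 and 2. JunBΔep replicate 1 was the highest of the 6 and replicate 2 the lowest, with the controls between them. The fitted log2 fold change was 0.07 (standard error 0.28, 95% interval -0.63 to 0.76, adjusted p = 0.942 from limma), and the interval allows a change of either sign. Without the library labelled JunBΔep replicate 0 it was 0.18.

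Set against each other within a mouse, which removes any scaling between libraries, Cldn1 was above Cldn4 in 3 of 3 control mice and below it in 3 of 3 JunBΔep mice. The ratio of Cldn1 to Cldn4 in FPKM was 1.44, 1.08 and 1.13 in control replicates 0, 1 and 2 and 0.689, 0.950 and 0.875 in JunBΔep replicates 0, 1 and 2. The log2 ratio was lower by 0.54 in JunBΔep skin (difference -0.54, exact permutation p = 0.1, two-sided, the smallest that 3 mice against 3 can give, and 0.900 after Benjamini-Hochberg adjustment over 36 pairs). This pair was picked after all 36 pairs of the 9 genes had been seen. The ratios did not overlap in 2 of the 36 pairs (5.56%). Over 16311 genes, the ratio to Cldn1 alone did not overlap in 8.0% (all JunBΔep mice higher in 2.38%), which is a background for Cldn4 over Cldn1 and not for pairs without Cldn1. The other pair was Ocln to Tjp1, with ratios of 0.812, 0.861 and 0.810 in controls and 0.394, 0.799 and 0.721 in JunBΔep mice. The lowest of these, in the library labelled JunBΔep replicate 0, was far from the rest.

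**Figure D2:**
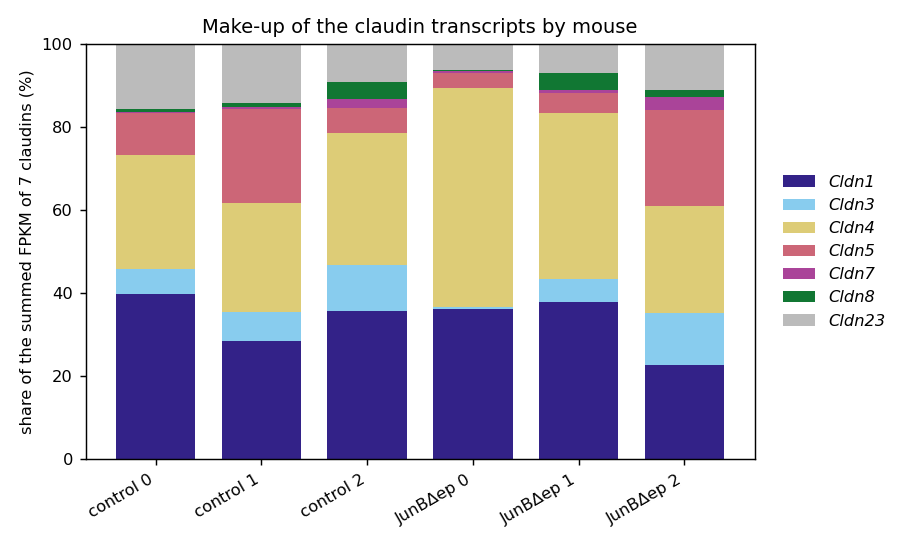
Share of each of the 7 claudins in their summed FPKM (vertical axis, percent) in each mouse. Cldn1 and Cldn4 together make up 54.7% to 67.4% in controls and 89.0%, 77.8% and 48.6% in JunBΔep replicates 0, 1 and 2.

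Together the 7 claudins added up to 169, 186 and 199 FPKM across control replicates 0, 1 and 2, against 155, 260.5 and 231 FPKM across JunBΔep replicates 0, 1 and 2. The library labelled JunBΔep replicate 0 had the lowest sum and the other 2 JunBΔep mice the highest sums of the 6. In the library labelled JunBΔep replicate 0, Cldn4 alone took 52.7% of the sum and Cldn3 took 0.377%, against 25.9% to 39.9% and 5.56% to 12.5% in the other 5 mice. Its ratio of Cldn4 to Cldn3 was 139.7, where the others lay between 2.08 and 7.17.

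Of the 9 genes, the strand protein occludin varied least between mice. Ocln, on chromosome 13 from 101266462 to 101322673, measured 6.83, 5.13 and 7.85 FPKM across control replicates 0, 1 and 2, against 5.36, 8.20 and 6.44 FPKM across JunBΔep replicates 0, 1 and 2. JunBΔep replicate 1 was just above the highest control, and the other two lay among the controls. The estimated log2 difference between groups of Ocln was 0.01 (standard error 0.25, 95% interval -0.59 to 0.62, adjusted p = 0.987 from limma), and 0.15 without the library labelled JunBΔep replicate 0, and the highest value over the 6 mice was 1.60 times the lowest. Tjp1, on chromosome 7 from 72441051 to 72516125, measured 8.41, 5.96 and 9.70 FPKM across control replicates 0, 1 and 2, against 13.6, 10.3 and 8.94 FPKM across JunBΔep replicates 0, 1 and 2. JunBΔep replicates 0 and 1 were above every control and replicate 2 was among them. The log2 fold change of Tjp1 was 0.43 (standard error 0.26, 95% interval -0.20 to 1.06, adjusted p = 0.722 from limma), and 0.27 without the library labelled JunBΔep replicate 0.

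**Figure D3:**
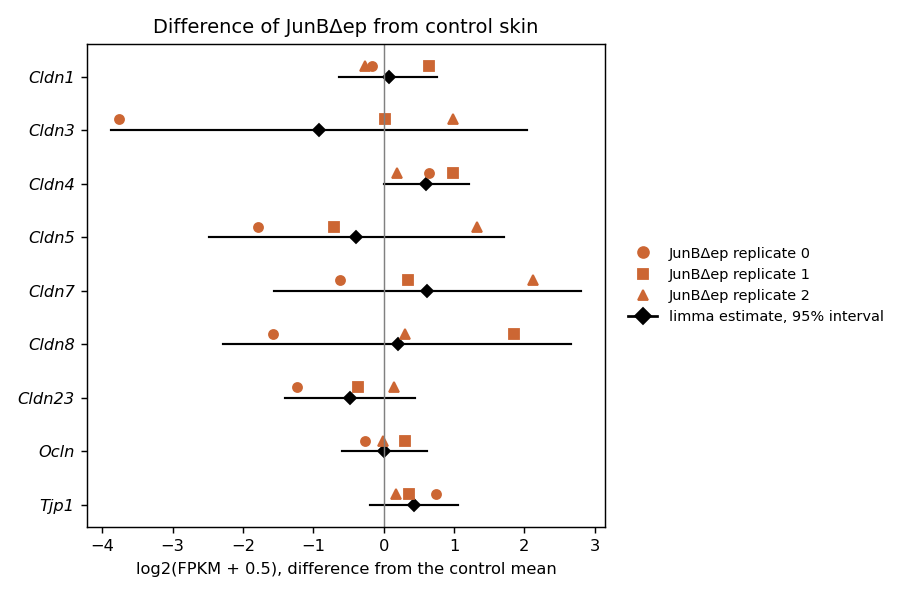
Difference of each JunBΔep mouse from the control mean (orange markers, shape by replicate) and the limma estimate with its 95% interval (black) for the 9 genes, on the log2(FPKM + 0.5) scale. The intervals of 8 genes include 0 and that of Cldn4 starts at 0.00. The 3 mice are furthest apart for Cldn3, at -3.77, 0.02 and 0.99.

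Cldn5, the endothelial claudin, varied within both groups. Its gene has 1 exon, on chromosome 16 from 18776940 to 18778353, plus strand. Its level measured 17.2, 42.2 and 12.3 FPKM across control replicates 0, 1 and 2, against 5.65, 12.5 and 53.3 FPKM across JunBΔep replicates 0, 1 and 2. The highest and the lowest values were both JunBΔep mice, and control replicate 1 was close to the highest. The fitted log2 fold change was -0.39 (standard error 0.86, 95% interval -2.49 to 1.71, adjusted p = 0.883 from limma) and 0.31 without the library labelled JunBΔep replicate 0. A list of 15 endothelial markers, among them Pecam1, Cdh5 and Kdr, summed to 160 to 271 FPKM across the controls, against 187, 100.1 and 322 FPKM across JunBΔep replicates 0, 1 and 2, and none of the 15 was at 0 in any mouse. JunBΔep replicate 2 was highest and control replicate 1 second for both, but the library with the lowest Cldn5, JunBΔep replicate 0, was not the one with the lowest endothelial sum. A list of 8 adipocyte markers summed to 1929 to 5938 FPKM across the controls, against 68.8, 3007 and 15164 FPKM across JunBΔep replicates 0, 1 and 2, a sum in the same order over the 6 mice as Cldn5, which 4 of the 8 genes (Adipoq, Cidec, Pck1 and Cfd) also had. None of the 8 was listed at 0, but for the library labelled JunBΔep replicate 0 Lep, Pck1 and Plin1 were near it, at 0.0275, 0.103 and 0.228 FPKM, and Adipoq was at 1.61 FPKM, against at least 175 FPKM in the others. The part of fat and vessel content in the Cldn5 values was not tested. How the remaining cell type lists rank against Cldn5 is not given, so the match of order with the adipocyte sum has no background.

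Cldn7 and Cldn8, the low claudins, differed between mice by more than 10 times. Cldn7, on chromosome 11 from 69778281 to 69781387, measured 0.456, 0.706 and 4.27 FPKM across control replicates 0, 1 and 2, against 0.651, 1.75 and 7.25 FPKM across JunBΔep replicates 0, 1 and 2. One mouse in each group, replicate 2, was well above the others. The estimated log2 difference between groups of Cldn7 was 0.62 (standard error 0.90, 95% interval -1.56 to 2.81, adjusted p = 0.814 from limma) and 1.24 without the library labelled JunBΔep replicate 0. The simple epithelial keratin Krt18 was highest in the same 2 mice, at 63.0 and 77.2 FPKM, against 0.206 to 7.58 FPKM in the other 4. The sum of 9 simple epithelial and gland markers, Krt18 among them, followed another order. The sum was 262 to 460 FPKM across the controls, against 673, 504 and 579 FPKM across JunBΔep replicates 0, 1 and 2. None of the 9 was at 0 in any mouse. Krt79, at 203 to 607 FPKM, was the largest member of the sum in each mouse. It was lowest in JunBΔep replicate 2, at 203 FPKM, where Krt19 was at 167, Krt18 at 77.2 and Krt8 at 55.1 FPKM. Krt8 and Aqp5 were highest in the same 2 mice as Krt18 and Cldn7, and the other 6 markers were not. The part of gland content in the Cldn7 values was not tested.

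Cldn8, on chromosome 16 from 88561073 to 88563428, measured 1.08, 1.92 and 8.01 FPKM across control replicates 0, 1 and 2, against 0.569, 11.1 and 3.46 FPKM across JunBΔep replicates 0, 1 and 2. Control replicate 2 and JunBΔep replicate 1 were the highest, and the groups overlapped throughout. The log2 fold change of Cldn8 was 0.20 (standard error 1.01, 95% interval -2.28 to 2.67, adjusted p = 0.955 from limma) and 1.08 without the library labelled JunBΔep replicate 0. A list of 6 melanocyte genes, with the pigment enzymes Dct, Tyr and Tyrp1, summed to 10.3, 18.3 and 84.1 FPKM across the controls, against 9.50, 117 and 21.9 FPKM across JunBΔep replicates 0, 1 and 2, a sum in the same order over the 6 mice as Cldn8. No single gene of the list had that order. Like Cldn8, 5 of the 6 were highest in JunBΔep replicate 1 and next in control replicate 2, and Sox10 was highest in JunBΔep replicate 2, at 12.6 FPKM. None of these markers was at 0 in any mouse, and the part of pigment cell content in the Cldn8 values was not tested. How the other cell type lists rank against Cldn8 is not given, so the match of order has no background.

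Cldn23, a single-exon gene on chromosome 8 from 36887766 to 36889613 that encodes a claudin of differentiated epithelia, measured 26.4, 26.4 and 18.2 FPKM across control replicates 0, 1 and 2, against 9.58, 18.1 and 26.0 FPKM across JunBΔep replicates 0, 1 and 2. The library labelled JunBΔep replicate 0 was the lowest, replicate 1 was next to the lowest control, and replicate 2 was among the high controls. The fitted log2 fold change was -0.48 (standard error 0.38, 95% interval -1.41 to 0.44, adjusted p = 0.722 from limma) and -0.11 without the library labelled JunBΔep replicate 0.

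**Figure D4:**
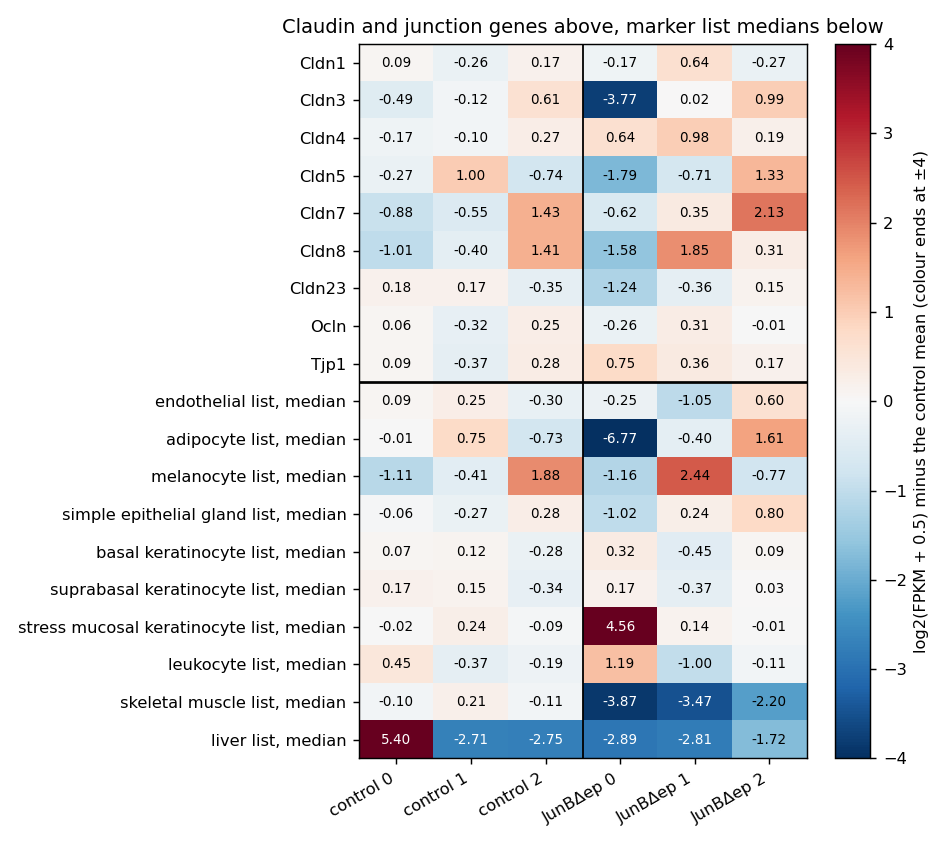
Each cell gives log2(FPKM + 0.5) minus the control mean for one gene (above the line) or the median of that quantity over a cell type marker list (below the line), by mouse, with colour from blue (below the control mean) to red (above). In the library labelled JunBΔep replicate 0, Cldn3 is at -3.77, the adipocyte list at -6.77 and the stress and mucosal keratin list at 4.56, a median over 8 genes of which Krt6a, Krt6b and Krt16 are listed at 0 there.

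The keratinocyte marker lists did not move alike. The median of 9 basal keratinocyte genes lay between -0.45 and 0.32 and that of 10 suprabasal genes between -0.37 and 0.17 over the 6 mice, relative to the control mean on the log2 scale, while that of 8 stress and mucosal keratinocyte genes was at 4.56 in the library labelled JunBΔep replicate 0 and between -0.09 and 0.24 in the other 5 mice. In that library Krt13, Krt4, Krt76, Sprr3 and Krt17 were the highest of the 6 mice, while the stress keratins Krt6a, Krt6b and Krt16 were listed at 0, as Krt14 was, which need not mean absent RNA. Among the basal genes of that library, Krt15 was the lowest of the 6 mice, at 80.7 FPKM, and Krt5, at 3725 FPKM, and Itga6, at 67.0 FPKM, were the highest. Of the 12 skeletal muscle genes, 9 were called lower in JunBΔep skin, where 1.38% of all tested genes were, and in all 12 every JunBΔep mouse was below every control, where this held for 9.16%. Their median was -3.87, -3.47 and -2.20 in JunBΔep replicates 0, 1 and 2. Without the library labelled JunBΔep replicate 0, 1 of the 12 was called, at a median log2 fold change of -2.83. Without any 1 of control replicates 0, 1 and 2 or JunBΔep replicate 1, and with either block, 0 genes were called over the whole table, so 0 of the 12. The liver list was at 5.40 in control replicate 0 and between -2.89 and -1.72 in the other 5 mice. The leukocyte list was at 1.19 in the library labelled JunBΔep replicate 0, its highest value. It was at -1.0 and -0.11 in JunBΔep replicates 1 and 2, and between -0.37 and 0.45 in the controls. The part of these differences in tissue content in the claudin values was not tested.

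A wider set of tight junction genes was read from the same fit. Of 62 further genes in the table, 59 passed the filter, 32 with a positive and 27 with a negative log2 fold change, at a median of 0.02. The count with an adjusted p below 0.05 was 1, lower in JunBΔep skin, or 1 of 59 where 1.38% of all genes were called lower, and 0 were higher. In 7 of the 59 all JunBΔep mice lay below all controls, where this held for 9.16% of all tested genes, and in 3 they lay above, where it held for 5.62%.

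The called gene was Amot, which encodes angiomotin, a scaffold of the junction and of Hippo signalling. Amot lies on the X chromosome from 141880968 to 141939724. Its level measured 4.91, 5.81 and 6.00 FPKM across control replicates 0, 1 and 2, against 0.890, 1.11 and 1.53 FPKM across JunBΔep replicates 0, 1 and 2. All 3 JunBΔep mice were below all 3 controls. The estimated log2 difference between groups was -1.87 (limma standard error 0.24 with an adjusted p of 0.0265). The call held without JunBΔep replicate 2, was at an adjusted p of 0.0510 without the library labelled JunBΔep replicate 0, and was at 0.117 to 0.157 from limma without any 1 of control replicates 0, 1 and 2 or JunBΔep replicate 1. Over all alternatives the adjusted p of Amot lay between 0.0206 and 0.183. All 12 skeletal muscle markers were also lower in every JunBΔep mouse than in every control, and the part of muscle content in the Amot values was not tested.

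The other 4-pass and immunoglobulin-like proteins of the junction were 12 genes, of which 0 were called, with 2 positive and 10 negative log2 fold changes and a median of -0.26 (0.05 without the library labelled JunBΔep replicate 0). In 2 of the 12 all JunBΔep mice were above all controls, F11r and Cxadr, and in 1 they were below, Ildr2, an angulin at 0.520 to 0.889 FPKM across the controls, against 0.190 to 0.370 FPKM across the JunBΔep mice (log2 fold change -0.60, adjusted p = 0.499 from limma). These shares compare with 5.62% above and 9.16% below over all tested genes. F11r, which encodes the junctional adhesion molecule JAM-A, measured 36.6, 45.0 and 47.4 FPKM across control replicates 0, 1 and 2, against 78.5, 71.3 and 57.2 FPKM across JunBΔep replicates 0, 1 and 2, all above the controls (log2 fold change 0.67, limma standard error 0.19 with an adjusted p of 0.311). Cxadr, a related adhesion protein and virus receptor, measured 14.6, 15.1 and 14.0 FPKM across the controls, against 46.2, 21.2 and 21.3 FPKM across the JunBΔep mice, again without overlap (log2 fold change 0.90, adjusted p = 0.548). Both kept their direction without the library labelled JunBΔep replicate 0, at 0.57 for F11r and 0.53 for Cxadr. Lsr, the angulin of junctions where 3 cells meet, was the most abundant of the group, measuring 82.2, 94.4 and 64.9 FPKM across the controls, against 37.1, 93.9 and 69.4 FPKM across the JunBΔep mice, with JunBΔep replicate 0 the lowest. Esam, an endothelial adhesion protein, was highest in control replicate 1 (31.2 FPKM) and JunBΔep replicate 2 (44.3 FPKM), the mice in which Cldn5 was highest. Igsf5 had the second largest absolute log2 fold change of the group, at -0.89, with values from 0.0267 to 2.82 FPKM and no separation of the groups, and it was -0.16 without control replicate 2.

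Among 23 scaffold and polarity genes, Amot was the one called, where 1.38% of all tested genes were called lower, and 6 genes had all JunBΔep mice below all controls, which held for 9.16% of all tested genes. Mpdz, which encodes the multi-PDZ scaffold MUPP1, measured 5.11, 5.39 and 5.03 FPKM across control replicates 0, 1 and 2, against 1.76, 3.10 and 3.17 FPKM across JunBΔep replicates 0, 1 and 2 (log2 fold change -0.87, limma standard error 0.26 with an adjusted p of 0.371). Cgn, which encodes cingulin, measured 23.5, 19.3 and 17.1 FPKM across control replicates 0, 1 and 2, against 3.97, 11.7 and 21.7 FPKM across JunBΔep replicates 0, 1 and 2, with a log2 fold change of -0.93 that was -0.30 without the library labelled JunBΔep replicate 0. The most abundant were Ybx3, a Y-box protein that binds ZO-1, from 405 to 485 FPKM across the controls, against 316 to 405 FPKM across the JunBΔep mice, Mllt4, which encodes afadin, at 25.2 to 53.9 FPKM over all mice, and Sympk, at 23.4 to 31.6 FPKM.

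**Figure D5:**
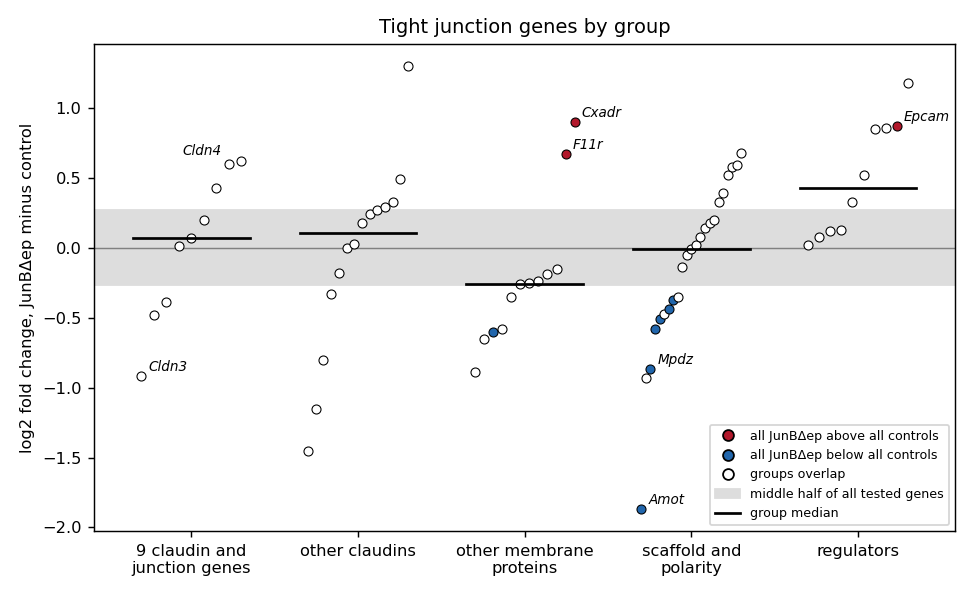
Log2 fold change (vertical axis, JunBΔep minus control, log2(FPKM + 0.5) scale) of the 9 genes and of 4 further groups of tight junction genes, 1 point per tested gene, ordered by value within a group. Colour marks genes whose groups do not overlap, the line is the group median (0.07 for the 9 genes), and the grey band holds the middle of all tested genes, between their quartiles. Amot, at -1.87, is the called gene.

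All 10 regulators of the junction had a positive log2 fold change, at a median of 0.43 against 0.03 over all tested genes, and 0 were called. Without the library labelled JunBΔep replicate 0 their median was 0.28. Epcam, an adhesion protein that binds and stabilises claudin-7 and claudin-1, measured 49.4, 62.0 and 69.9 FPKM across control replicates 0, 1 and 2, against 122, 119 and 90.4 FPKM across JunBΔep replicates 0, 1 and 2. All 3 JunBΔep mice were above all controls. The log2 fold change was 0.87 (limma standard error 0.21 with an adjusted p of 0.192), and it was 0.79 without the library labelled JunBΔep replicate 0. Spint1, an inhibitor of the membrane protease matriptase, measured 24.5, 25.4 and 45.9 FPKM across the controls, against 95.5, 105.4 and 34.0 FPKM across the JunBΔep mice, with overlap (log2 fold change 1.18, adjusted p = 0.672). Grhl3, a Grainyhead-like factor of the epidermal barrier, measured 28.3, 16.4 and 21.8 FPKM across the controls, against 88.3, 27.6 and 25.8 FPKM across the JunBΔep mice, with overlap and the highest value in the library labelled JunBΔep replicate 0 (log2 fold change 0.86, adjusted p = 0.722, and 0.30 without that library). Spint2, a relative of Spint1, was among the most abundant, with a log2 fold change of 0.08.

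The remaining claudins were 17 genes, of which 14 passed the filter and 0 were called. Cldn16 and Cldn24 were listed at 0 in all 6 mice, and Cldn18 was at most 0.00867 FPKM. Cldn10 varied widely between mice, measuring 9.04, 4.74 and 65.3 FPKM across the controls, against 1.56, 32.1 and 8.79 FPKM across the JunBΔep mice. The 2 highest mice were those with the highest Cldn8, control replicate 2 and JunBΔep replicate 1. Cldn19, which encodes a claudin of Schwann cells and kidney, was from 2.18 to 5.62 FPKM across the controls, against 0.300, 1.29 and 3.46 FPKM across JunBΔep replicates 0, 1 and 2, with a log2 fold change of -1.15 (adjusted p = 0.722 from limma) that was -0.57 without the library labelled JunBΔep replicate 0. Cldn17 reached 4.31 FPKM for the library labelled JunBΔep replicate 0 and at most 0.636 FPKM in the others, and Cldn13 reached 10.1 FPKM in control replicate 0 and at most 0.0209 FPKM in the others. Cldn12 was from 5.46 to 10.0 FPKM across the controls, against 6.22 to 10.1 FPKM across the JunBΔep mice. The row named Cldn25, at 31.3 to 63.2 FPKM, carries a symbol that the annotation of mm9 gives to the gene now called Cldnd1, a claudin domain protein.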

How the data were processed

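Whole skin of 3 JunBΔep and 3 control mice was sequenced from poly(A) RNA with stranded libraries. The authors aligned reads to mm9 with TopHat2 2.0.10, Bowtie 1.0.0 and SAMtools 0.1.19, and deposited FPKM values per gene and mouse. Cufflinks is among the tools in the submitters' processing notes, with no role given. Read counts were not analysed here, the number of reads is unknown, and no column was left unused (0).

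Values as deposited were transformed to log2(FPKM + 0.5), a scale that understates changes of low genes, then tested in limma 3.58.1 (R 4.3.3, two-sided, trended variance prior, no block) over the 17021 genes whose mean reached 0.1 FPKM, with Benjamini-Hochberg adjustment over all of them and a threshold of 0.05. The study's own count-based test was not used. The labels do not tie libraries to litters or to a day of preparation, and p-values measure the spread between these mice. Intervals are limma's 95% intervals. Exact permutation tests were used for ratios within a mouse. Positions are from GENCODE vM1 on mm9 (1-based), and sequences from RefSeq on GRCm38.p6. Figures were drawn with matplotlib 3.10.9.

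The 9 genes and the lists were chosen with earlier results of these data known. The genes named are the 9, Junb, from each further tight junction list those called, the 3 with the largest absolute log2 fold change and the 3 with the highest mean, and for each of the 9 the 2 genes with the nearest profile over the 6 mice, except 1 gene that is not reported here. Cell type lists are given as sums and medians instead of by their genes of highest and lowest fold change. The markers named in the text, Ildr2, the ratio of Cldn1 to Cldn4 and the ratio of Ocln to Tjp1 were chosen after their values were seen. Other settings covered the pseudocount (0.1 or 1), the filter (none, or a mean of 1 FPKM), scaling (median ratios or quantiles), limma's options (untrended or robust), blocking (by replicate number or by sample-name series), and omission of each mouse in turn.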

Additional observations from a re-analysis of the deposited data

How the results depend on the processing

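None of the 9 genes was called under any of the 16 alternatives, and their median log2 fold change lay between -0.22 and 0.31. Of 144 values of the 9 genes under these alternatives, 129 kept their direction and 15 did not. With a block on the sample-name series the log2 fold change was -0.04 for Cldn1, -0.05 for Cldn7, -0.60 for Cldn8, -0.12 for Ocln, 0.14 for Junb and -0.01 for Spint2. Over each mouse left out in turn the log2 fold change ranged from -0.22 to 0.23 for Cldn1, -1.88 to 0.50 for Cldn3, -1.25 to 0.31 for Cldn5, -0.13 to 1.34 for Cldn7, -0.63 to 1.08 for Cldn8, -0.15 to 0.15 for Ocln, -0.84 to 0.25 for Junb, -1.77 to 0.27 for Cldn10, -0.04 to 0.46 for Cldn25, -0.64 to 0.02 for Lsr, -0.88 to 0.08 for Esam, -0.04 to 0.51 for Mllt4, -0.02 to 0.18 for Sympk and -0.10 to 0.19 for Spint2. The positive direction of Cldn4 and Tjp1 and the negative direction of Cldn23 held under all 16. Within the lower and the higher sample-name series, the log2 difference was 0.90 and -0.02 for Tjp1 and -1.42 and 0.24 for Cldn23. Neither of these directions was seen within the higher series. The only JunBΔep mouse of the lower series is the library labelled replicate 0. The log2 ratio of Cldn4 to Cldn1 lay between 0.40 and 0.63.

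Over all genes 235 were called. The count was 0 with a replicate block and 0 with a block on the sample-name series, and from 0 to 254 with each mouse left out. It was 0 without control replicate 0, 1 or 2 or JunBΔep replicate 1 and 135 without JunBΔep replicate 0. Among the 59 further tight junction genes the count of 1 (Amot) became 0 without the filter, 0 with the replicate block and 0 with the block on the sample-name series, and 0 to 1 with each mouse left out. The cause was not tested. Correlations across genes of the deviations of same-numbered mice from their group means were 0.12, -0.228 and -0.426 for replicates 0, 1 and 2. Those of differently numbered mice ran from -0.371 (control replicate 0 and JunBΔep replicate 1) to 0.46 (control replicate 2 and JunBΔep replicate 1). Within a group these deviations depend on one another, because the group mean is of so few mice. The correlations therefore cannot decide whether the numbers pair the mice. No read counts were at hand, so counting error could not be given.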

Other observations

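For each of the 9 genes, the genes with the nearest profile over the 6 mice were sought among 13741 genes whose mean reached 1 FPKM, by the root mean square difference of log2(FPKM + 0.5) values centred on each gene's mean. The genes that varied little between mice had many neighbours. Within a difference of 0.2 there were 816 genes for Ocln, 793 for Tjp1, 319 for Cldn4, 262 for Cldn1 and 225 for Cldn23, and none for Cldn3, Cldn5, Cldn7 or Cldn8. The nearest to Cldn4 were 2410016O06Rik and Tgif1 (difference 0.06 each), and Tgif1, a transcriptional repressor, was measured at 18.7, 20.4 and 25.5 FPKM across the controls, against 30.3, 41.0 and 22.6 FPKM across JunBΔep replicates 0, 1 and 2. The nearest to Cldn1 were Sostdc1 and Hnrnpr (0.08 each), to Ocln Ints4 (0.05) and Epb4.1l5 (0.06), to Tjp1 Zfp335 and Sec24c (0.06 each), and to Cldn23 Unc13d (0.05) and C920025E04Rik (0.06).

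The claudins that varied most had more distant neighbours. Cldn3 was nearest to Klf15 (0.42), a transcription factor of fat and muscle metabolism measured at 13.1, 15.6 and 19.6 FPKM across the controls, against 0.965, 8.88 and 21.1 FPKM across JunBΔep replicates 0, 1 and 2, and to the lipid enzyme gene Chpt1 (0.51). Cldn5 was nearest to Rasd1 (0.23) and Chrdl1 (0.28), Cldn7 to Dusp4 (0.41) and Syne4 (0.44), and Cldn8 to Rab15 (0.34) and Rhpn2 (0.36). Rab15 was at 18.3 FPKM in control replicate 2 and 17.4 FPKM in JunBΔep replicate 1, the mice with the highest Cldn8, and at most 7.11 FPKM in the others. These neighbours rest on 6 mice and on no test.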
